A study of Homo sapiens with 12 samples.

Results

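The measurement described here is the interaction of TGFβ and Aramchol on the transcriptome of H69 cells. It asks whether the difference that Aramchol makes depends on the presence of TGFβ. All 12 libraries of the series were used, and the interaction was tested for 21567 genes out of 62703 in the count table, those with enough counts. It was computed for each gene as the log2 ratio of TGFβ + Aramchol to TGFβ, minus the log2 ratio of Aramchol to vehicle. A value of 0 means that the combined group stood at the level given by the TGFβ level times the Aramchol level over the vehicle level, called the multiplicative level here. A negative value means that it stood below that level, and a positive value above it.

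H69 is a human bile duct epithelial line, immortalised with a viral oncogene, so it models cholangiocytes only as far as a cultured line can. After 6 h without serum, cells received 1 of 4 treatments overnight without serum. The groups were vehicle, TGFβ at 10 ng/mL, Aramchol at 30 µM, and both agents together, with 3 libraries each. The series text states a single Aramchol dose, which was assumed for both groups that received it. Whether the 3 libraries of a group came from separate cultures is not stated, so the p-values reflect variation among libraries only, and part or all of it may be technical. Total counts ran from 52279922 to 70339925 per library and mitochondrial transcripts took 7.81 to 9.45% of them. KRT8 (477 to 1033 CPM, counts scaled to a common library size), KRT18 (252 to 402 CPM) and KRT7 (275 to 999.9 CPM), keratins of simple and biliary epithelium, were present in every library. Other markers of bile duct cells, CFTR, SCTR, SPP1 and PROM1, lay at or near 0, as did ALB and TTR of hepatocytes, PTPRC and CD3E of leukocytes, COL3A1 of fibroblasts and EMCN of endothelium. Other members of those lists were expressed, among them SERPINA1 (62.6 to 106 CPM), CPS1 (53.5 to 69.2 CPM) and FGG (6.84 to 62.2 CPM) of hepatocytes, PDGFRB (41.8 to 229 CPM) and THY1 (73.8 to 130 CPM) of fibroblasts, CD14 (5.18 to 34.3 CPM) of leukocytes and ENG (9.42 to 39.1 CPM) of endothelium. In bulk RNA, fewer cells of a type and less RNA per cell cannot be told apart.

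TGFβ is a cytokine that binds a receptor kinase pair at the cell surface and sends SMAD proteins to the nucleus. In epithelium it raises extracellular matrix genes and mesenchymal genes and lowers junctional genes, and around bile ducts it is known for its part in fibrosis. Aramchol joins a bile acid to a long saturated fatty acid and inhibits stearoyl-CoA desaturase (SCD), which makes monounsaturated fatty acids. Tests of an interaction compare a difference of differences, so their error is larger than that of a comparison of groups. The median standard error (SE) of the log2 interaction was 0.19 over all genes tested, and 0.11 over the 13338 genes that reached at least 2 CPM in their highest group.

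The combined treatment departed from the multiplicative level in 3 genes: FN1, JAG1 and SEC24D, all below it. FN1 encodes fibronectin, a matrix glycoprotein that cells bind through integrins. JAG1 encodes Jagged1, a membrane ligand of Notch receptors that takes part in bile duct formation, and SEC24D encodes a cargo-binding subunit of the COPII coat, which carries secretory proteins, procollagen among them, out of the endoplasmic reticulum (ER). These 3 genes are 0.0139% of the genes tested (quasi-likelihood test of edgeR, Benjamini-Hochberg adjusted p under 0.05), and no gene passed on the higher side. At an unadjusted p under 0.05 there were 1137 genes, 5.27% of those tested, near the share expected with no interaction in any gene. Of them 539 (2.5% of genes tested) had a positive and 598 (2.77%) a negative interaction, and DESeq2 called 4 higher and 26 lower genes at the same adjusted threshold. The median log2 interaction over all genes was 0.01.

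The start regions of FN1 and JAG1 are shown because these are the called genes with a promoter entry in the RefSeq table used (GRCh38.p14); SEC24D has none there. The region between the starts of COL4A1 and COL4A2 follows, because that pair of divergent genes also appears among the negative interactions described further on. The first 2 are the 250 bases before each start on the gene's own strand: chr2:215436069-215436318, minus strand, for FN1 and chr20:10674000-10674249, minus strand, for JAG1. The third is the 126 bases of chr13:110307158-110307283, on the strand of COL4A2. Capitals mark matches to any of 8 motifs searched on both strands.
FN1: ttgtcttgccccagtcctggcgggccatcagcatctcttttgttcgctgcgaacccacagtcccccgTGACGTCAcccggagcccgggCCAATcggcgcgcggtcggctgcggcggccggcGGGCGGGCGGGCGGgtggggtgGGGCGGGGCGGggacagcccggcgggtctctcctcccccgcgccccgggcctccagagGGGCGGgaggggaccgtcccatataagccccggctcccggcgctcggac
JAG1: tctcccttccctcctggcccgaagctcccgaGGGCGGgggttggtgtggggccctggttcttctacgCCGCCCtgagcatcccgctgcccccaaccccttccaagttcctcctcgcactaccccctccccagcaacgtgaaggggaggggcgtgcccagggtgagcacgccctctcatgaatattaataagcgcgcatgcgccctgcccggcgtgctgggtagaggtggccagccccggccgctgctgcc
COL4A1-COL4A2: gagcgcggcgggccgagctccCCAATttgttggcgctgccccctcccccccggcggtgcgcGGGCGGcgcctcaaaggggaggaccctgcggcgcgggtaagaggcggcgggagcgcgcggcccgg
The FN1 window held a full cyclic AMP response element (TGACGTCA) at position -183 from the start, a CCAAT box at -162 and 6 GC boxes (GGGCGG). JAG1 had 2 GC boxes. The collagen pair's window had 1 CCAAT box and 1 GC box. Over 34943 promoter windows of 250 bases, 1.63% held TGACGTCA, 42.5% GGGCGG and 32.0% CCAAT. None of these windows held AP-1 (TGANTCA, in 6.59% of all promoters), the amino acid response element (TGATGNAA, 3.15%), the core of the unfolded protein response element (TGACGTGG, 0.615%), the SMAD palindrome (GTCTAGAC, 0.183%) or the sterol element searched (TCACNCCAC, 0.881%). A match is a string of letters and not a measured site of binding.

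Fibronectin had the interaction with the smallest ratio to the multiplicative level among the 3 called genes. FN1 (ENSG00000115414, chromosome 2, 215360440 to 215436073, minus strand) stood at 666, 685 and 627 CPM with vehicle and at 643, 657 and 676 CPM with Aramchol. With TGFβ it stood at 6954, 6960.5 and 8339 CPM, and with both agents at 3686, 4091 and 4554 CPM. The vehicle and Aramchol libraries therefore overlapped, whereas the libraries with both agents lay below every library with TGFβ alone. Group means were 659 ± 29.4 (SD, n = 3), 659 ± 16.5, 7418 ± 798 and 4110.3 ± 434 CPM. The log2 difference made by Aramchol was -0.0017 without TGFβ and -0.85 with it. The log2 interaction was -0.85 (SE 0.11, 95% interval -1.09 to -0.61, edgeR adjusted p = 0.0205). The mean of the combined group was 55.5% of the multiplicative level of 7409 CPM.

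JAG1 (ENSG00000101384, chromosome 20, 10637684 to 10673999, minus strand) had Aramchol differences of opposite sign in the absence and presence of TGFβ. It stood at 64.5, 65.7 and 64.5 CPM with vehicle and at 80.4, 81.1 and 76.3 CPM with Aramchol. With TGFβ the levels were 184, 186 and 187 CPM, and with both agents 164, 167 and 161 CPM. Neither pair of groups overlapped: Aramchol libraries lay above vehicle, and those with both agents below TGFβ. The log2 differences were 0.29 and -0.18, and the log2 interaction was -0.47 (SE 0.06, 95% interval -0.60 to -0.33, edgeR adjusted p = 0.0205). The combined group stood at 72.3% of the multiplicative level of 227 CPM.

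SEC24D (ENSG00000150961, chromosome 4, 118722823 to 118838683, minus strand) showed another form of interaction, in which the Aramchol difference was present without TGFβ and near 0 with it. Its levels were 58.2, 59.6 and 57.8 CPM with vehicle and 85.0, 81.7 and 84.2 CPM with Aramchol. They were 107, 111 and 118 CPM with TGFβ, and 109.8, 111 and 117 CPM with both agents. The vehicle and Aramchol libraries did not overlap, and the other 6 libraries overlapped fully in range. The log2 differences were 0.51 and 0.01, with a log2 interaction of -0.51 (SE 0.07, 95% interval -0.66 to -0.36, edgeR adjusted p = 0.0233) and a combined level at 70.3% of the multiplicative one. In the plot of the called genes by library, these 3 shapes stand side by side.

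**Figure D1:**
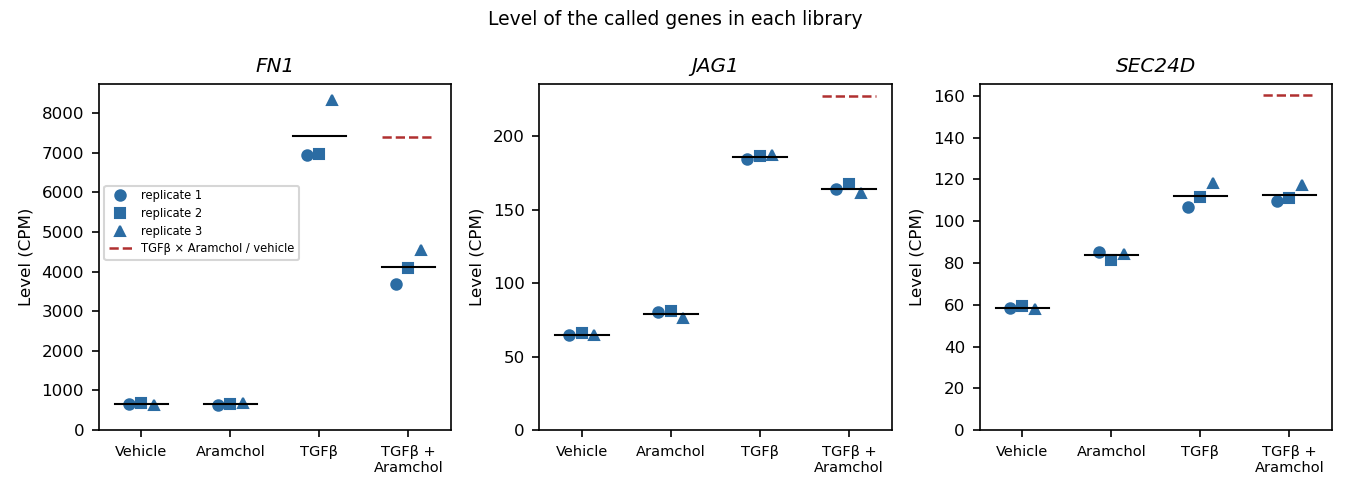
Level in CPM (linear axis from 0) of FN1, JAG1 and SEC24D in each of the 12 libraries, with symbols for the replicate number, a black line at each group mean and a dashed line at the multiplicative level for the combined group. All 9 combined points lie below their dashed line, at 7409 CPM for FN1, 227 CPM for JAG1 and 160.4 CPM for SEC24D.

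The calls depended on single libraries. With 1 library left out, from 0 to 7 genes passed the test. None passed without Vehicle replicate 1 or 2, Aramchol replicate 1 or 2, TGFβ replicate 2 or 3, or TGFβ + Aramchol replicate 1 or 2, where the smallest edgeR adjusted p was 0.0646 to 0.144. Without Vehicle replicate 3 there were 7 calls (3 higher and 4 lower), without Aramchol replicate 3 there were 4, without TGFβ replicate 1 there were 2, and without TGFβ + Aramchol replicate 3 there were 3 (1 higher and 2 lower). The size changed little: the log2 interaction stayed between -0.93 and -0.76 for FN1, -0.49 and -0.45 for JAG1, and -0.54 and -0.47 for SEC24D. Beyond leaving libraries out, all 3 were called in each of the 9 other settings tried, DESeq2 included.

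The 4 libraries numbered 3 stood apart from the rest, which bears on every count of calls. On the third principal component of log2 CPM they lay at 17.0 to 35.1, and the other 8 at -20.4 to -5.50. On the second, Vehicle replicate 3 lay at -5.32, away from the other vehicle libraries (24.8 and 27.3) and near the Aramchol libraries (-15.6 to -10.1). The library names carry a running sample number that follows the replicate number, with these 4 libraries last. What else these 4 libraries have in common was not given in the sources used here. With a term for number 3 in the same fit, 31 genes were called (0.144% of genes tested), 9 higher and 22 lower. When only the 8 libraries numbered 1 and 2 were fitted, 191 of 21762 genes were called (0.878%), 75 higher and 116 lower. Of the 31 genes, 30 were also called in the libraries numbered 1 and 2. The 2 fits share these 8 libraries, so the overlap adds no independent support. The plot of calls by setting shows this spread of counts.

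**Figure D2:**
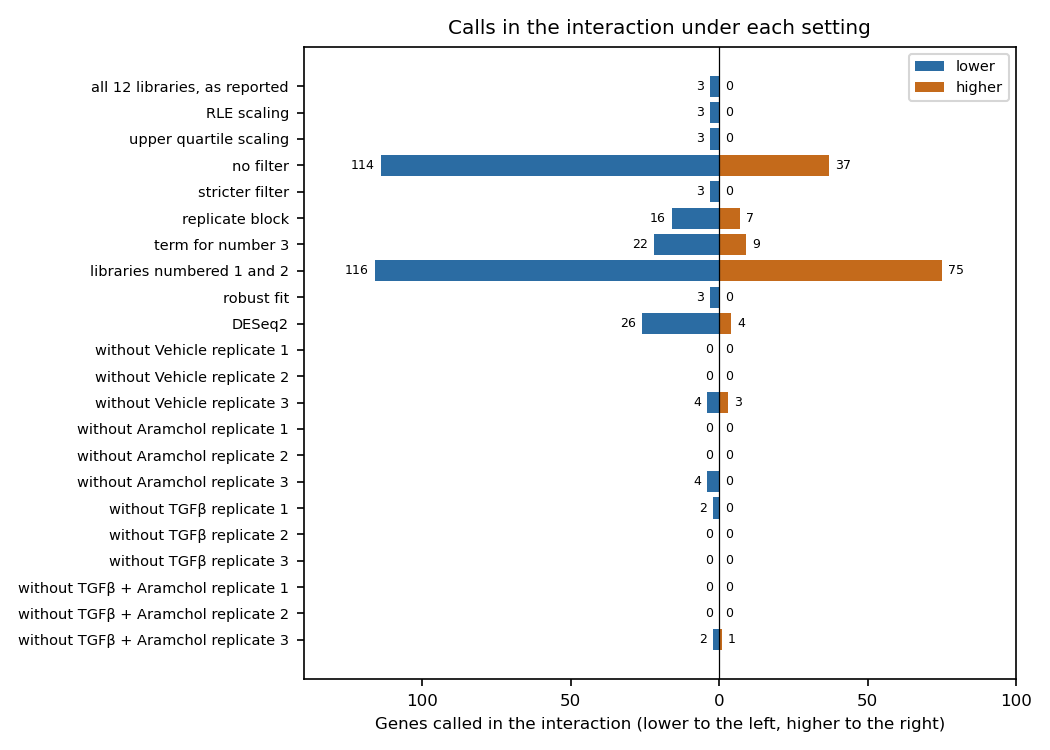
Number of genes called in the interaction (adjusted p under 0.05) under each setting, with negative interactions to the left and positive ones to the right of 0. All 12 libraries as reported gave 3 lower and 0 higher calls, a term for number 3 gave 22 and 9, and leaving out single libraries gave 0 to 7 in all.

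The genes with the smallest p-values were then read on each side, 12 negative and 12 positive, protein coding and with at least 2 CPM in their highest group. FN1, JAG1 and SEC24D were the 3 called genes of the negative side, and the other 21 missed the threshold in all 12 libraries. On the negative side, the 9 uncalled genes had edgeR adjusted p-values of 0.175 to 0.303. All 12 negative genes were called with a term for number 3, in the libraries numbered 1 and 2, and by DESeq2. On the positive side the edgeR adjusted p-values were 0.303 to 0.773, and 4 of 12 were called with the term, 8 in the libraries numbered 1 and 2, and 4 by DESeq2. The 24 genes were chosen by p-value in this same contrast, so their 95% intervals are a description. Refits of the same libraries favour calls of genes chosen this way, so these counts of calls add no independent support.

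The negative genes were mostly genes that stood higher with TGFβ. Mean levels with TGFβ exceeded vehicle in 10 of 12, the exceptions being ZC3HAV1 and PIK3AP1. Among the positive genes, the mean with TGFβ lay below vehicle in 12 of 12. The interaction subtracts the TGFβ level and adds the vehicle level, so choosing genes by it favours both directions. The share over all genes tested is not given here, so these counts describe the chosen genes only. Aramchol differences had opposite signs with and without TGFβ in 8 of 12 negative and 11 of 12 positive genes. Choosing genes by the gap between these 2 differences favours opposite signs. In the plot of the 2 differences behind each interaction, the negative genes fall below the diagonal and the positive genes above it, by definition. On the CPM scale, where differences are subtracted without logs, 11 of 12 negative and 12 of 12 positive genes kept the sign. The exception was PIK3AP1, whose Aramchol difference was -10.6 CPM without TGFβ and -9.93 CPM with it.

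**Figure D3:**
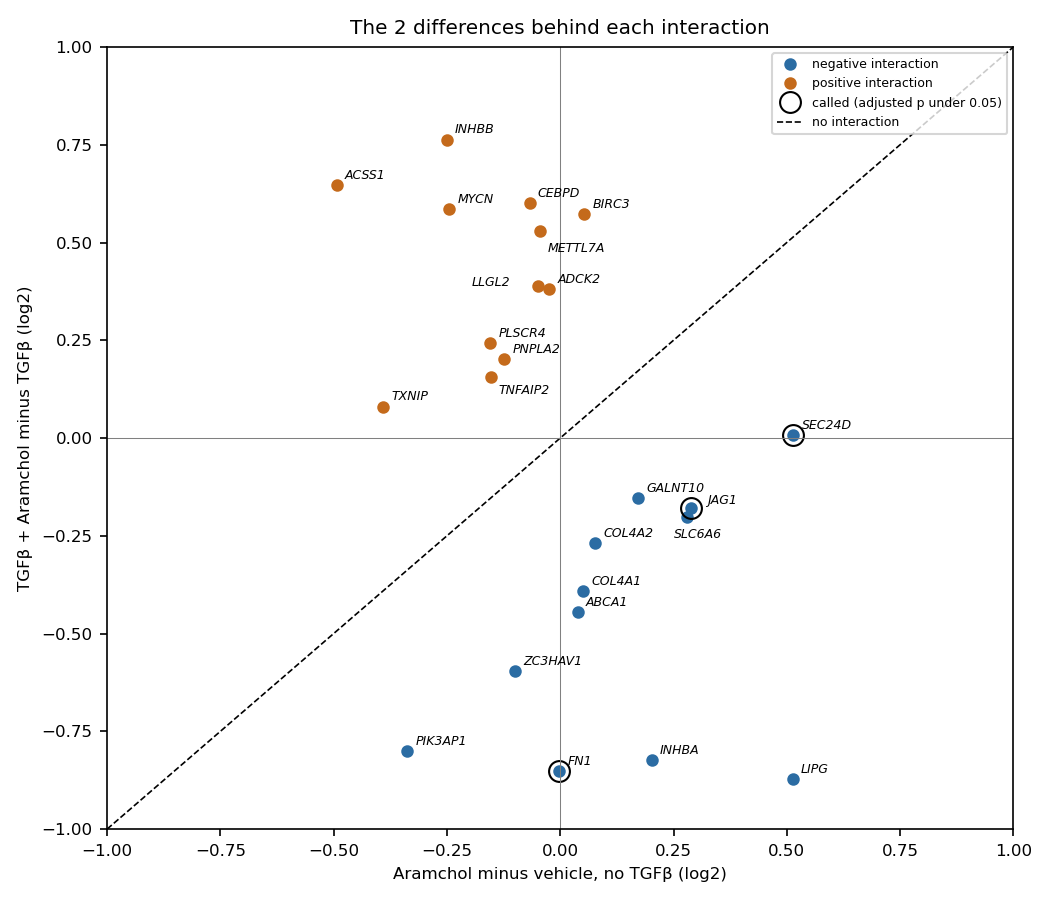
Log2 difference of Aramchol against vehicle (horizontal) and of TGFβ + Aramchol against TGFβ (vertical) for the 12 negative and 12 positive genes, with rings around the 3 called genes and a dashed diagonal of no interaction. FN1 lies at -0.0017 and -0.85, SEC24D at 0.51 and 0.01, and most positive genes lie left of 0 and above 0.

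The basement membrane collagens COL4A1 and COL4A2 followed fibronectin among the negative genes. COL4A1 encodes the α1 chain of type IV collagen, the network-forming collagen under epithelia. It stood at 122, 122 and 116 CPM with vehicle and 122, 132 and 118 CPM with Aramchol. With TGFβ it stood at 802, 797 and 789.6 CPM, and with both agents at 575, 637 and 608 CPM. The libraries with and without Aramchol overlapped in the absence of TGFβ and were apart in its presence. The log2 interaction was -0.44 (SE 0.08, 95% interval -0.61 to -0.28, edgeR adjusted p = 0.175, or 0.0120 once a number 3 term was added). COL4A2, the α2 chain of the same trimer, had means of 392 ± 9.55 and 413 ± 12.8 CPM without TGFβ and 1199 ± 23.3 and 995 ± 47.9 CPM with it, and a log2 interaction of -0.35 (SE 0.07, edgeR adjusted p = 0.303, and 0.0361 with the term). In the table's gene models these genes overlap at their starts on opposite strands (COL4A1 ends at 110307157 and COL4A2 begins at 110305812 on chromosome 13). The sources do not give the strand setting of the counting, so reads in the overlap could have been counted for either gene or for none.

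INHBA was a further negative gene. It encodes the βA subunit of activin A, a ligand of the TGFβ family. It stood at 5.60, 5.55 and 3.93 CPM with vehicle, and at 6.50, 6.74 and 4.07 CPM with Aramchol. The TGFβ libraries held 96.7, 92.9 and 82.0 CPM, and those with both agents 50.6, 53.7 and 49.2 CPM. Only the last pair of groups was free of overlap, with the combined libraries at 49.2% of the multiplicative level on average. The log2 interaction was -1.03 (SE 0.21, 95% interval -1.47 to -0.58, edgeR adjusted p = 0.303, or 0.00182 with that term).

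LIPG, ABCA1 and SLC6A6 were also among the 12 negative genes. LIPG, endothelial lipase, which hydrolyses phospholipids of high-density lipoprotein, had 1.91, 1.81 and 0.949 CPM with vehicle and 2.16, 2.50 and 1.95 CPM with Aramchol. It had 24.4, 25.4 and 24.3 CPM with TGFβ and 15.2, 13.4 and 11.9 CPM with both. Its interaction, -1.38 on the log2 scale (SE 0.25, 95% interval -1.91 to -0.86, edgeR adjusted p = 0.175), was the most negative of the 12, and its combined level was 38.6% of the multiplicative one. ABCA1, the exporter of cholesterol to apolipoprotein A-I, stood at 33.9 ± 1.62 and 34.8 ± 1.38 CPM without TGFβ, overlapping, and at 99.0 ± 3.32 and 72.6 ± 5.61 CPM with it, apart (log2 interaction -0.48, SE 0.09, edgeR adjusted p = 0.188). SLC6A6, the taurine transporter, stood at 124 ± 4.81 and 150.3 ± 3.50 CPM without TGFβ and 299 ± 29.3 and 259.8 ± 16.4 CPM with it (-0.48, SE 0.09, edgeR adjusted p = 0.303). Like JAG1, SLC6A6 had a higher mean with Aramchol alone and a lower one beside TGFβ.

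GALNT10, which starts O-linked sugar chains in the Golgi, had the smallest of the 12 negative interactions (-0.32, SE 0.06, edgeR adjusted p = 0.303) and means of 125 ± 2.93, 140.3 ± 1.74, 317 ± 7.85 and 285 ± 8.37 CPM in the order vehicle, Aramchol, TGFβ and both. ZC3HAV1, an antiviral protein that binds RNA, differed in form: its TGFβ libraries (395, 397 and 360.0 CPM) were near its vehicle libraries (392, 402 and 435 CPM). Its Aramchol libraries had 409, 405 and 334 CPM, and its combined libraries 249, 260.0 and 254 CPM, the only group apart from the others (log2 interaction -0.50, SE 0.10, edgeR adjusted p = 0.303). PIK3AP1, an adaptor for phosphoinositide 3-kinase, had means of 50.6 ± 1.45, 40.1 ± 3.67, 23.3 ± 0.218 and 13.4 ± 0.619 CPM, a ratio of levels that was lower beside TGFβ (-0.46, SE 0.10, edgeR adjusted p = 0.303).

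The positive genes with the smallest p-values were MYCN, ACSS1 and CEBPD. MYCN, a MYC family transcription factor, stood at 8.55, 7.94 and 7.48 CPM with vehicle and 6.01, 6.70 and 7.48 CPM with Aramchol. With TGFβ it stood at 3.29, 3.66 and 3.16 CPM, and with both at 5.41, 5.32 and 4.47 CPM. Its combined libraries were above the TGFβ libraries, at 178% of the multiplicative level (log2 interaction 0.83, SE 0.16, 95% interval 0.48 to 1.18, edgeR adjusted p = 0.303, and 0.0361 with the term). ACSS1, which makes acetyl-CoA from acetate in mitochondria, had 28.3, 30.7 and 24.0 CPM with vehicle, 20.1, 20.95 and 17.9 CPM with Aramchol, 2.37, 2.64 and 1.76 CPM with TGFβ, and 4.22, 3.94 and 2.50 CPM with both. Its Aramchol libraries lay below vehicle, while the combined libraries overlapped TGFβ through replicate 3. The log2 interaction was 1.14 (SE 0.24, 95% interval 0.64 to 1.65, edgeR adjusted p = 0.303, and 0.00165 with the term). CEBPD, a stress-responsive transcription factor, had 116, 94.1 and 94.1 CPM with vehicle, 97.2, 102 and 90.8 CPM with Aramchol, 22.6, 25.9 and 23.0 CPM with TGFβ, and 40.7, 37.9 and 30.0 CPM with both. The groups overlapped without TGFβ and were apart with it (0.67, SE 0.15, edgeR adjusted p = 0.447, and 0.0134 with the term).

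Further positive genes, none of them called in all 12 libraries, included BIRC3, INHBB, PNPLA2 and TXNIP. BIRC3, a ubiquitin ligase that restrains cell death downstream of TNF receptors, had means of 116 ± 11.9, 120.5 ± 13.7, 27.7 ± 2.51 and 41.2 ± 5.56 CPM (0.52, SE 0.15, edgeR adjusted p = 0.773, and 0.0453 with the term). INHBB, the βB activin subunit, stood opposite to INHBA, with 20.5 ± 5.41, 17.2 ± 0.302, 0.861 ± 0.158 and 1.47 ± 0.239 CPM and a log2 interaction of 1.01 (SE 0.28, edgeR adjusted p = 0.773). PNPLA2, the lipase that opens the breakdown of stored triglyceride, had 98.8 ± 4.39, 90.8 ± 2.55, 60.4 ± 2.88 and 69.5 ± 4.86 CPM (0.33, SE 0.08, edgeR adjusted p = 0.683). TXNIP, an inhibitor of thioredoxin and of glucose uptake, had 397 ± 57.2, 303 ± 3.77, 178 ± 8.43 and 188 ± 8.99 CPM (0.47, SE 0.11, edgeR adjusted p = 0.513). The other 5 were TNFAIP2 (0.31), METTL7A (0.57), ADCK2 (0.40), LLGL2 (0.44) and PLSCR4 (0.40, all log2 interactions), with edgeR adjusted p-values of 0.513 to 0.773. LLGL2 encodes a cell polarity protein of epithelia.

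**Figure D4:**
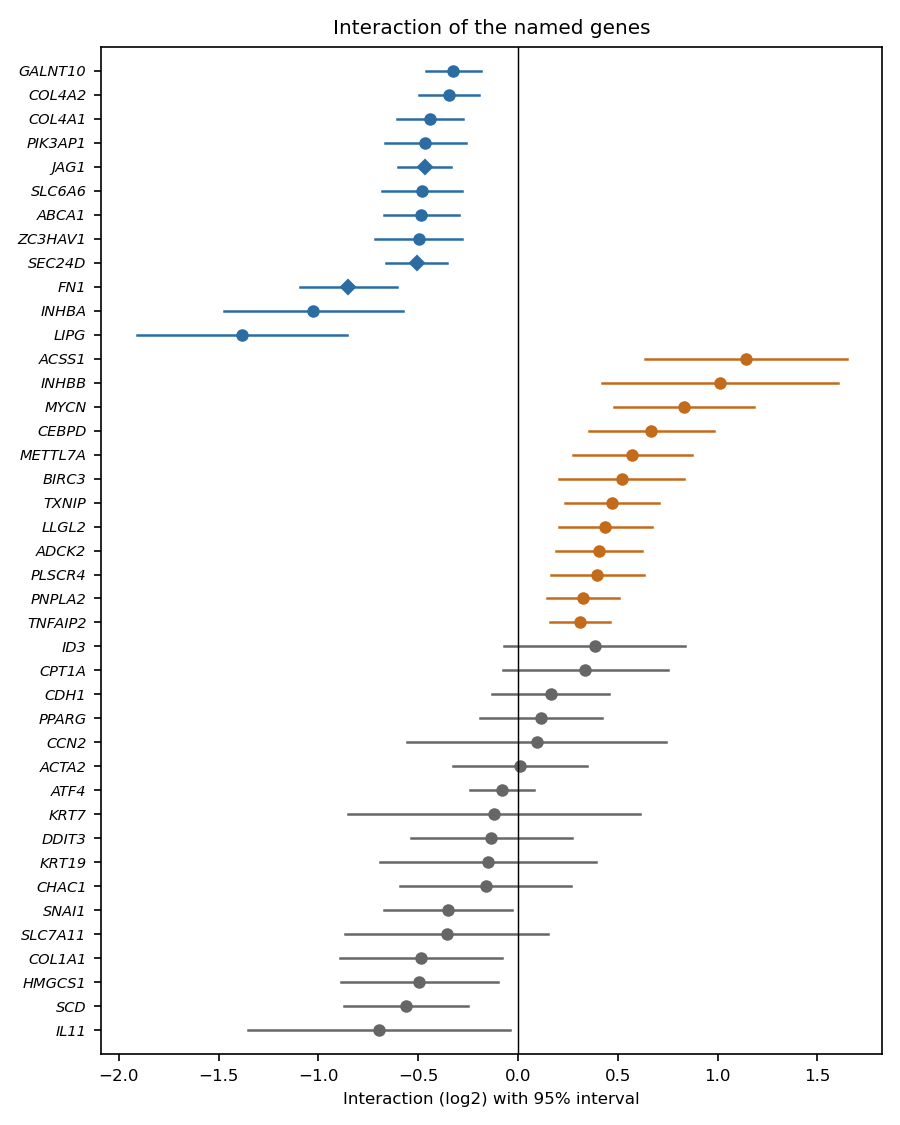
Log2 interaction with its 95% interval for the 12 negative genes (blue, diamonds for the 3 called), the 12 positive genes (orange) and 17 further genes (grey) chosen for their roles in TGFβ, lipid and stress pathways and in bile duct identity. LIPG at -1.38 and ACSS1 at 1.14 are the extremes of the blue and orange genes, and 12 of the 17 grey intervals include 0.

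Of 20 genes chosen for their roles and followed whatever their values, 18 are described here, FN1 among them. None of the other 17 passed the test (edgeR adjusted p 0.683 to 1.00), and 5 had 95% intervals without 0. SCD, the enzyme that Aramchol acts on, stood at 499, 530.1 and 380.5 CPM with vehicle and 567, 582 and 707 CPM with Aramchol. With TGFβ it stood at 1018, 1046 and 1039 CPM, and with both at 905, 883 and 979.8 CPM. Its Aramchol libraries were all above vehicle and its combined libraries all below TGFβ. The log2 interaction was -0.56 (SE 0.15, 95% interval -0.87 to -0.25, edgeR adjusted p = 0.683). It was 0.129 with a term for number 3, and in the libraries numbered 1 and 2 the log2 interaction was -0.37 with an adjusted p of 0.00447.

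The remaining TGFβ readouts of that set gave mixed sizes. COL1A1, the α1 chain of fibrillar type I collagen, had means of 1058 ± 92.9, 1083 ± 126, 4752 ± 782 and 3472 ± 729.9 CPM and a log2 interaction of -0.49 (95% interval -0.89 to -0.08, edgeR adjusted p = 0.918). IL11, a profibrotic cytokine, had 5.90 ± 2.26, 8.39 ± 2.74, 189.9 ± 2.34 and 167 ± 7.03 CPM (-0.69, 95% interval -1.35 to -0.04, edgeR adjusted p = 0.943). The log2 interaction of IL11 was -0.40 without Vehicle replicate 3. In the libraries numbered 1 and 2 both passed the test, COL1A1 at -0.36 (edgeR adjusted p = 0.00336) and IL11 at -0.61 (0.000488). Neither passed with a term for number 3, where the edgeR adjusted p was 0.273 for COL1A1 and 0.329 for IL11. With the replicate number as a block it was 0.363 and 0.405. SNAI1, a repressor of E-cadherin, had -0.35 (95% interval -0.67 to -0.03). E-cadherin itself, CDH1, had 0.16 (95% interval -0.13 to 0.46). Intervals for CCN2 (-0.56 to 0.74), a matricellular growth factor, and ID3 (-0.07 to 0.84), a helix-loop-helix inhibitor, were wide. ACTA2, smooth muscle actin of myofibroblasts, had 0.01 (-0.33 to 0.35).

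Stress and lipid genes of the set had no interaction past the threshold in all 12 libraries, and some had Aramchol differences of like size in CPM. SLC7A11, the cystine importer, had 2.78 ± 0.272, 8.16 ± 1.51, 4.26 ± 0.981 and 9.74 ± 1.41 CPM. Its Aramchol difference was 5.39 CPM without TGFβ and 5.49 CPM with it, while the log2 interaction was -0.36 (95% interval -0.87 to 0.15), or -0.16 without TGFβ replicate 3 and -0.20 without Aramchol replicate 3. CHAC1, which degrades glutathione, had -0.16 (-0.59 to 0.27) and ATF4, the main transcription factor of that stress response, -0.08 (-0.24 to 0.08). The sign of the interaction on the CPM scale was opposite to that on the log2 scale for SLC7A11, CHAC1, ATF4, ID3, ACTA2 and CCN2. DDIT3, a stress-induced transcription factor, had -0.13 (-0.54 to 0.27). Among lipid genes, PPARG had 0.11 (-0.19 to 0.42), CPT1A, which brings fatty acids into mitochondria, 0.34 (-0.08 to 0.75), and HMGCS1, an early enzyme of cholesterol synthesis, -0.49 (-0.89 to -0.10). CPT1A passed the test in the libraries numbered 1 and 2 (log2 interaction 0.35, edgeR adjusted p = 0.0306). It did not with a term for number 3 (edgeR adjusted p = 0.439) or with the replicate number as a block (0.500). Its log2 interaction ranged from 0.21 without TGFβ + Aramchol replicate 2 to 0.53 without TGFβ + Aramchol replicate 3. The bile duct keratins KRT7 (-0.12, -0.85 to 0.61) and KRT19 (-0.15, -0.69 to 0.39) had wide intervals. Vehicle replicate 3 held 275 CPM of KRT7, and the other vehicle libraries 706 and 677 CPM.

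Gene lists were described by counts and medians, beside the all-gene median of 0.01 and the 2.77% of all genes that were lower at an unadjusted p under 0.05. Over all 21567 genes tested, 11110 had a positive and 10457 a negative interaction. Matrix and fibrosis genes were negative in 47 of 51 tested members, with a median log2 interaction of -0.24. The medians of the Aramchol difference were -0.01 without TGFβ and -0.29 with it. At an unadjusted p under 0.05, 15 of the 51 (29.4%) were lower and 0 higher. FN1 alone was called in all 12 libraries, and 6 members (FN1, COL4A1, COL4A2, COL5A1, TNC and SPARC) were called lower with a term for number 3. COL5A1, a chain of type V collagen, had 333 ± 18.3, 374 ± 21.2, 2544 ± 346 and 1789 ± 339.7 CPM (log2 interaction -0.68, edgeR adjusted p = 0.513, and 0.0348 with the term). TNC, tenascin C, had 26.4 ± 7.20, 35.0 ± 4.66, 632 ± 16.2 and 469 ± 14.6 CPM (-0.84, edgeR adjusted p = 0.522, and 0.0120 with the term). SPARC, a collagen-binding matricellular protein, had 223 ± 1.95, 242 ± 15.1, 761 ± 89.4 and 577 ± 82.4 CPM (-0.52, edgeR adjusted p = 0.649, and 0.0112 with the term). The 4 positive members were LAMA3, LOXL4, MMP3 and CCN1.

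ER chaperone and unfolded protein response genes showed a like pattern, with 23 of 26 negative and a median of -0.17. Of them, 10 (38.5%) were lower and 0 higher at an unadjusted p under 0.05. SEC24D was the called member, but it departed from the list's medians given below. Its Aramchol difference was 0.51 without TGFβ and 0.01 with it. The others included the chaperone HSP90B1 (795, 742, 1402 and 1029.9 CPM in the order vehicle, Aramchol, TGFβ and both; log2 interaction -0.35), the disulfide isomerases PDIA3 (-0.24), PDIA4 (-0.25) and PDIA6 (-0.24), the lectin chaperone CANX (-0.21), HYOU1 (-0.33) and the HSP70 partners DNAJB11 (-0.24) and DNAJC3 (-0.22). None of these 8 passed the adjusted threshold. The median Aramchol difference of the list was -0.02 without TGFβ and -0.26 with it, near that of the matrix list. Chaperones of the ER fold newly made secretory proteins, matrix proteins included. Leaving out single libraries gave list medians of -0.25 to -0.13 here and -0.32 to -0.18 for the matrix genes.

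Cholesterol synthesis genes and other SREBP2 targets were negative in 26 of 26 tested members, between -0.49 (HMGCS1) and -0.01 (TM7SF2), with a median of -0.25. Here the medians of the Aramchol difference were 0.26 without TGFβ and 0.03 with it, unlike the matrix genes, whose difference without TGFβ was near 0. At an unadjusted p under 0.05, 9 (34.6%) were lower and 0 higher, and none was called in all 12 libraries. SQLE, squalene epoxidase, had mean levels of 139.8, 184, 178 and 186 CPM (log2 interaction -0.33), and INSIG1, the sterol-regulated anchor of SREBP, 139.3, 195, 181 and 192 CPM (-0.40). STARD4, a cytosolic sterol carrier, was called lower with a term for number 3 (26.7, 27.6 and 23.2 CPM with vehicle, 34.1, 34.5 and 32.4 with Aramchol, 38.5, 38.0 and 35.8 with TGFβ, 34.7, 37.8 and 36.0 with both; edgeR adjusted p = 0.447, and 0.0348 with the term). The median of this list was -0.31 without TGFβ + Aramchol replicate 3, -0.15 without TGFβ replicate 3 and -0.08 in the libraries numbered 1 and 2, where 20 of 26 members were negative. Fatty acid synthesis and desaturation genes, SCD among them, were negative in 20 of 30, with a median of -0.11, or 0.01 in the libraries numbered 1 and 2 and -0.07 without Aramchol replicate 3.

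Lists tied to epithelial and mesenchymal state leaned in opposite directions by smaller amounts. Mesenchymal genes were negative in 19 of 23 with a median of -0.19, and 4 (17.4%) were lower at an unadjusted p under 0.05: SNAI2 (-0.60), ITGB1 (-0.26), ITGA5 (-0.32) and SNAI1 (-0.35). Direct TGFβ targets were negative in 22 of 33 with a median of -0.12, with 4 lower and 2 higher at that threshold. Among them TGFBI, a matrix protein, had 653, 580.3, 6423 and 4524 CPM (-0.33), and WNT9A, a Wnt ligand, had 0.47. Epithelial genes were positive in 19 of 30 with a median of 0.13, with 2 higher and 1 lower at that threshold. No member of these 3 lists was called, and their medians kept their sign in all 21 settings tried, as did those of the matrix, ER and cholesterol lists. Single libraries moved their size: the median was -0.07 for mesenchymal genes and -0.02 for direct targets without Vehicle replicate 3, and 0.03 for epithelial genes without Vehicle replicate 1.

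**Figure D5:**
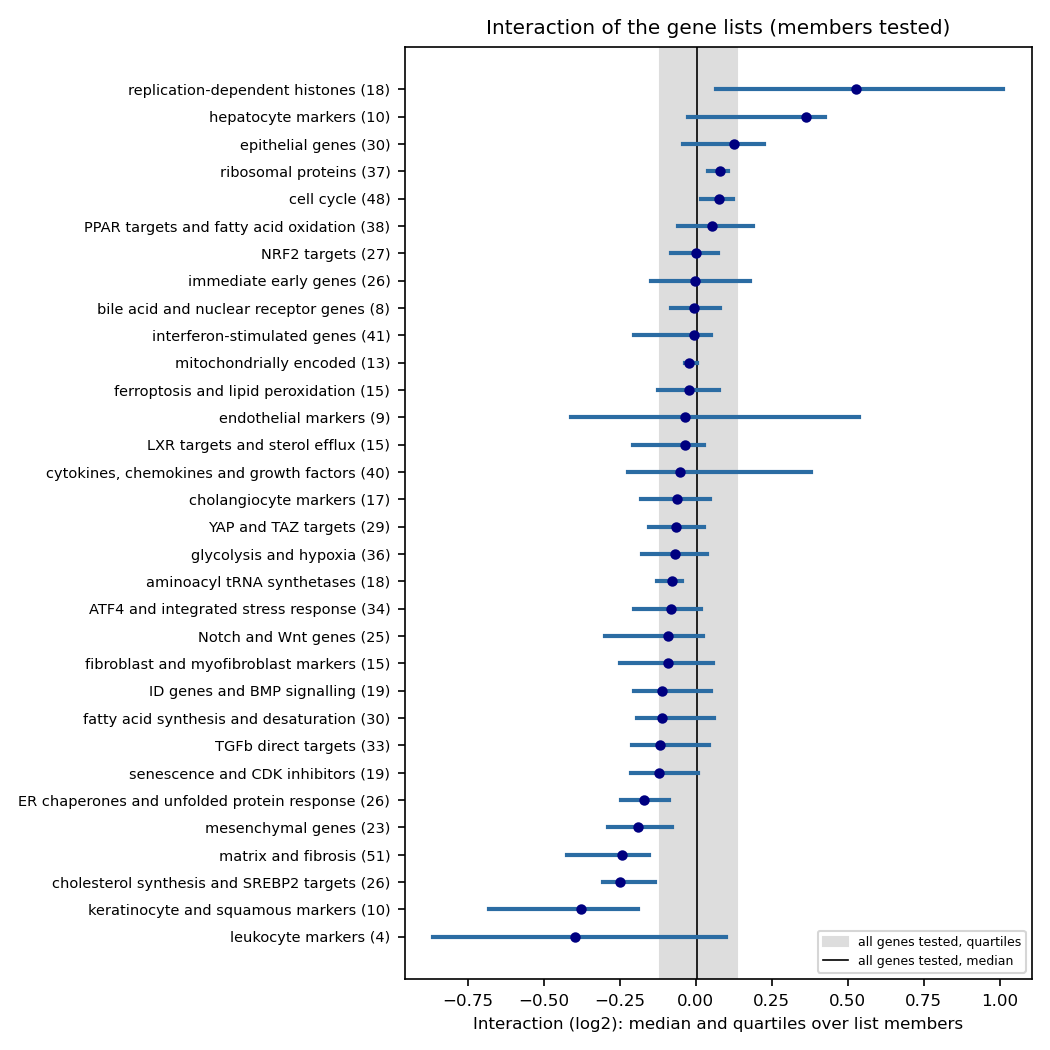
Median (point) and quartiles (bar) of the log2 interaction over the tested members of each gene list, with the number of members in brackets and the quartiles of all genes tested as a grey band. The matrix (-0.24), cholesterol (-0.25) and ER (-0.17) lists lie left of the grey band's centre, and the epithelial list (0.13) right of it.

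Apart from the ER list above (-0.17), stress pathway lists had medians between -0.08 and 0.00, beside 0.01 for all genes. Targets of ATF4 had median Aramchol differences of 0.30 without and 0.27 with TGFβ, and a median interaction of -0.08 over 34 genes, 23 of them negative (-0.01 without Vehicle replicate 3). SLC7A5, a large amino acid transporter, had the smallest p of that list (67.4, 97.5, 301 and 306 CPM; log2 interaction -0.51). Aminoacyl tRNA synthetases were negative in 16 of 18, with a median of -0.08 and median Aramchol differences of 0.12 without and 0.06 with TGFβ. NRF2 targets had a median of 0.00 over 27 genes, 15 of them positive, and median Aramchol differences of 0.01 and -0.03. Interferon-stimulated genes had a median of -0.01 over 41 genes, 24 of them negative, and median Aramchol differences of 0.29 and 0.18. That median depended on the libraries used: it was -0.27 in the libraries numbered 1 and 2, -0.23 without Aramchol replicate 3 and 0.07 without TGFβ replicate 1, and it changed sign in 8 of 21 settings. Cell cycle genes had 42 of 48 positive with a small median of 0.08, and ribosomal protein genes 36 of 37 with the same median. Both medians lay within the quartiles of all genes tested (-0.12 to 0.14). Replication-dependent histones had a median of 0.53 over 18 genes, and 0.18 without Vehicle replicate 2. They belong to multigene families, so single members are uncertain.

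Cytokine and growth factor genes lay on both sides at an unadjusted p under 0.05, with 7 of 40 (17.5%, against 2.5% of all genes) higher and 4 (10%) lower, and a median of -0.05 that changed sign in 6 of 21 settings. The higher members were INHBB and, with smaller values, CCL20 (0.56), CXCL5 (0.38), CXCL6 (0.39), CXCL3 (0.61), CXCL2 (0.79) and NFKBIA (0.21), a group of chemokines and the inhibitor of NF-κB. The lower members were INHBA, VEGFC (-0.32), FGF2 (-0.40) and IL11. Notch and Wnt genes were negative in 16 of 25 with a median of -0.09 (-0.01 without TGFβ replicate 3), and at that threshold 4 (16%) were lower and 1 (4%) higher. JAG1 was called, the other lower ones were HES1 (-0.26), a Notch target, NOTCH3 (-0.53) and the secreted Wnt inhibitor DKK3 (-0.21), and the higher one was NKD2 (0.40), an inhibitor of Wnt signalling. Of 19 ID and BMP genes, 1 (5.26%) was higher, BMP4 (0.41), and 1 (5.26%) lower, the BMP antagonist NOG (-1.22), at low levels for NOG (0.129, 0.368, 1.45 and 1.76 CPM).

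Markers of other cell types were read the same way. Fibroblast and myofibroblast markers summed to 204 to 245 CPM with vehicle, 213 to 227 with Aramchol, 590.1 to 644 with TGFβ and 448 to 486 with both. Of 15 tested, 9 were negative, and FAP (-1.18), PDGFRB (-0.32) and THY1 (-0.29) were lower at an unadjusted p under 0.05. Keratinocyte and squamous markers were negative in 9 of 10 with a median of -0.38 (-0.72 without Vehicle replicate 1), and summed to 75.8 to 124, 97.6 to 141, 692 to 763 and 561 to 657 CPM in the same order, mostly through KRT17. Of 4 leukocyte markers tested, 2 were positive and 2 negative. At that threshold CSF1R was lower (-0.99; 0.645, 0.893, 20.98 and 14.5 CPM) and CD14 higher (0.32; 31.3, 28.5, 5.47 and 6.25 CPM), while CD3E was at 0 in every library and PTPRC at most 0.148 CPM. The leukocyte sums were 29.4 to 36.1, 30.2 to 30.7, 25.7 to 29.2 and 21.1 to 22.2 CPM. Hepatocyte markers were positive in 6 of 10 with a median of 0.36 (0.17 without Vehicle replicate 2), none passed the unadjusted threshold in either direction, and their sums were 173 to 241, 187 to 196, 176 to 186 and 154 to 167 CPM. Endothelial markers were negative in 5 of 9 with a median of -0.03, ENG (-0.54) was lower at that threshold, and their sums were 19.98 to 30.5, 25.7 to 32.7, 48.6 to 51.1 and 33.8 to 38.9 CPM. The fibroblast, keratinocyte and endothelial sums, like most matrix genes named above, were highest with TGFβ and next highest with both agents. The hepatocyte and leukocyte sums were lowest with both agents. The part of these markers in the interaction was not tested.

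With the term for number 3, 15 of the 31 called genes lay outside the genes already chosen by rule and are named here after their values were seen. Besides COL5A1, TNC, SPARC and STARD4 they were SIM2, CLEC18B, TBX3, GJA1, PTK2B and NRG1 on the negative side, and ZBTB16, SGPP2, EMP1, ALDH3B1 and RCAN1 on the positive side. NRG1, a growth factor for ERBB receptors, had 8.28 ± 0.695, 8.64 ± 0.551, 27.7 ± 2.21 and 19.1 ± 1.19 CPM (-0.59, edgeR adjusted p = 0.303, and 0.0476 with the term). GJA1, the gap junction protein connexin 43, had 63.4 ± 6.87, 58.3 ± 1.10, 144 ± 4.02 and 99.3 ± 4.81 CPM (-0.41, edgeR adjusted p = 0.513, and 0.0383 with the term), and was the one gene of the 31 not called in the libraries numbered 1 and 2 (0.0678). Of the 22 negative genes, 20 had a higher mean with TGFβ than with vehicle, and of the 9 positive genes all 9 had a lower one. These calls came from the same contrast as the genes read above, which favours these directions, and add no independent support.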

How the data were processed

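The files hold 1 table of counts, deposited by the authors as integers for each of 62703 genes in each library; 20616 genes had no count. Per the submitters' processing notes, STAR 2.7.9a, featureCounts of Subread, GRCh38 and DESeq2 were used; how strand was handled and which annotation served was not given in the sources used here. Gene coordinates are those in the table. Symbols were matched for 62625 IDs; 1741 IDs share a symbol, and the ID with most counts was taken.

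Genes passing filterByExpr were normalised by TMM, with factors from 0.930 to 1.09, and modelled with 1 mean per group over all 12 libraries by the quasi-likelihood test of edgeR 4.0.16 (R 4.3.3), at an adjusted p of 0.05 (Benjamini-Hochberg). The biological coefficient of variation was 8.90%. Levels are CPM scaled by TMM. The procedure was tested on simulated data. No 2 libraries of a group were duplicates. Alternatives were scaling by RLE or by the upper quartile, a filter that was dropped or made stricter (10 or more counts in 3 libraries and a mean of 1 CPM), a robust fit, a replicate block, a term for number 3, libraries numbered 1 and 2 alone, DESeq2 1.42.0 and leaving out each library. Named genes were 20 chosen for their roles and the 12 protein coding genes per direction with at least 2 CPM, called ones first and then those of smallest p; lists covered pathways and cell types (32 lists, 763 genes tested). Some of these genes are not reported here, but counts and medians of lists include them. Genes, lists and alternatives were chosen with earlier results of these data known. Promoters came from RefSeq. Tables and figures were made in Python 3.11.15 (matplotlib 3.10.9, numpy 2.4.6, pandas 2.3.3). Reads carry no molecular identifiers, so precision was taken from the spread between libraries.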

Additional observations from a re-analysis of the deposited data

Results flagged for a closer look

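The Aramchol difference was not the same in cells with and without TGFβ, by the interaction test of edgeR, in 3 genes. FN1 had a log2 interaction of -0.85 (adjusted p = 0.0205), JAG1 of -0.47 (0.0205) and SEC24D of -0.51 (0.0233). The combined mean was below the multiplicative level in each. Most of the 12 fits with 1 library left out lost the call of each gene. FN1 kept its call in 4 of them, SEC24D in 3 and JAG1 in 2.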

How the results depend on the processing

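The interaction gave 3 lower calls with RLE or upper quartile scaling, a stricter filter or a robust fit, the same 3 genes each time. It gave 151 calls (37 higher, 114 lower) without a filter, where 150 of the 151 genes were ones that also passed the filter and the median degrees of freedom went from 15.1 to 336696. DESeq2 gave 30 (4 and 26), a term for number 3 gave 31 (9 and 22), and libraries numbered 1 and 2 gave 191 (75 and 116); the cause was not tested. With the replicate number as a block there were 23 calls (7 and 16). The labels state no pairing of libraries across groups, so the main fit had no block. This choice bears on the number of calls. Deviations of same-numbered libraries had low positive correlations. They were 0.0074 to 0.107 for number 1, 0.0158 to 0.0812 for number 2 and 0.111 to 0.221 for number 3. In that order, 4 of 4, 1 of 4 and 4 of 4 libraries correlated best with their own number. With each library left out, calls ranged from 0 to 7, higher ones from 0 to 3 and lower ones from 0 to 4. Values near 0 changed sign. The interaction of ACTA2, 0.01 with all libraries, was -0.0028 with RLE scaling, -0.00044 without a filter and -0.0024 with DESeq2, and -0.077 to 0.12 with single libraries left out. CCN2 (0.09) ranged from -0.12 to 0.40 in the same way. The interaction of KRT7 (-0.12) was 0.065 and the interaction of KRT19 (-0.15) was 0.073 in the libraries numbered 1 and 2, and 0.20 and 0.10 without Vehicle replicate 3, with ranges from -0.33 and -0.32. The scaling moved the all-gene median to -0.01 (RLE) or 0.02 (upper quartile). At the median SE of 0.19 with 3 libraries a group, small interactions were not detectable.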
